A study of Mus musculus with 6 samples.

Results

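The 78 genes described here are the nuclear genes for oxidative phosphorylation that were taken by symbol from the 16854 genes of the deposited expression table. A gene was taken if its symbol began with Nduf, Uqcr or Atp5, was Sdha, Sdhb, Sdhc or Sdhd, or began with Cox4, Cox5 or Cox6 followed by a, b or c. Cox6a1, Cox6a2 and symbols with -ps were left out, and the rule uses symbols and no measured value. By known function, 36 genes encode subunits of complex I, 4 of complex II, 8 of complex III, 5 of complex IV and 15 of complex V. Ndufa4 was placed with complex IV. The rule does not take in every nuclear subunit, so statements on a complex hold for its genes named here. The other 10 genes are assembly factors of complex I (Ndufaf1 to Ndufaf8), Atp5s and Ndufa4l2. All 78 genes had enough reads to be tested.

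Oxidative phosphorylation is carried out by protein complexes of the inner mitochondrial membrane. Complex I takes electrons from NADH and complex II from succinate, complex III passes them to cytochrome c, and complex IV hands them to oxygen. Complex V, the ATP synthase, uses the proton gradient built by complexes I, III and IV to make ATP. Complex II is encoded entirely in the nucleus, while the other complexes also contain subunits encoded by mitochondrial DNA. Myoblasts that differentiate into myotubes are known to expand their mitochondria.

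Poly(A)-selected RNA was sequenced from C2C12, a mouse myoblast line that forms multinucleated myotubes when serum is reduced. The 3 control libraries came from cells carrying a scramble hairpin. The 3 knockdown libraries came from cells that stably expressed a short hairpin RNA against Adamtsl2, a gene for a secreted glycoprotein of the extracellular matrix. Cells of both groups were switched at confluence to medium with 2% horse serum and harvested on day 3 of differentiation, so both groups carry a hairpin and both were in differentiation medium. Nothing in the labels says that libraries of a group came from separate cultures or clones, so p-values measure the spread between these libraries, which may be technical. Effects of the target, of the hairpin on other genes and of separately derived lines cannot be told apart. The question that these genes address is how far the RNA for each respiratory complex differed between the groups.

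Values are read counts normalised by the authors to one scale across libraries. The libraries held 37346439 to 50329438 reads assigned to genes. Adamtsl2 itself had normalised read counts of 1325, 1266 and 1307 in the control libraries and 23.2, 21.8 and 7.83 in the knockdown libraries. Its log2 fold change was −6.26 ± 0.41 (SE; limma adjusted p = 0.00011; exact two-sided permutation p = 0.1, the smallest that 3 against 3 allows), which matches the labels. Knockdown library 3 stood apart from the other 5. Its values correlated at 0.917 and 0.920 with knockdown libraries 1 and 2, which correlated at 0.996 with each other (Pearson, log2 values, across genes). The share of reads in protein-coding genes was 93.7% there and 97.7% to 98.1% elsewhere, and that of the nuclear RNA Malat1 2.83% there and 0.302% to 0.515% elsewhere. The 8 markers of differentiated muscle all fell, and their summed value was 989603 to 1016076 in the controls and 8323 to 9363 in the knockdown libraries. Myog, the myogenic factor myogenin, was at 40656, 42385 and 43535 against 564, 519 and 461. Of the 4 fibroblast markers in the table, Dcn rose and none passed as lower, and their summed value was 464462 to 491718 against 291765 to 433700. Every knockdown value of Col3a1 and Lum was below every control. Without knockdown library 3, 2 of the 4 fell (Col3a1 and Lum) and 2 rose (Dcn and Pdgfra). Markers of other cell types were low: summed values were 6.32 to 6.65 against 18.2 to 90.6 for 2 endothelial genes, 98.1 to 138.7 against 63.8 to 129.7 for 3 leukocyte genes and 40.3 to 48.0 against 25.1 to 35.6 for 2 epithelial genes. Pecam1, an endothelial marker, was at 68.2 in knockdown library 3 and at 4.97 or less elsewhere, and was too low to be tested. Among these low markers Tek rose (log2 fold change 2.27 ± 0.42, limma adjusted p = 0.0059). Itgam (−4.18 ± 0.82, limma adjusted p = 0.0077) and Krt8 (−2.90 ± 0.53, limma adjusted p = 0.0059) fell, and Cd68, Csf1r and Cdh1 did not pass the test. Tek passed the filter only through the knockdown libraries, and Itgam and Krt8 only through the controls. The directions of these calls thus depend on the filter, and no conclusion is drawn from them. In these bulk samples fewer cells of a type and less RNA per cell cannot be told apart, and the part that the loss of muscle markers had in the results below was not tested.

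The RNAs for oxidative phosphorylation were lower in knockdown libraries 1 and 2 for nearly every gene. In knockdown library 3 the genes of complex II, the core genes of complex III and the alpha and beta subunits of complex V were also below every control, while many small subunits were at or above their control level. Together the 78 genes took 1.499%, 1.48% and 1.61% of normalised reads in the controls. Their share was 0.708% and 0.739% in knockdown libraries 1 and 2, and 1.53% in knockdown library 3. In libraries 1 and 2, 74 of 78 genes lay below the lowest control, where 43.2% of the 16245 genes tested did. In library 3, 41 of 78 lay above the highest control, against 45.9% of all genes. The control mean exceeded the mean of knockdown libraries 1 and 2 by a median of 2.40-fold, with a range from 0.84-fold to 7.18-fold. The controls differed little among themselves, with a coefficient of variation of 1.05% to 13.3% and a median of 6.43%.

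Over all 6 libraries, 29 genes fell, 0 rose and 49 did not pass the test (limma, Benjamini-Hochberg adjusted p under 0.05). Of all 16245 genes tested, 23.5% were called lower and 21.7% higher, so the share of these genes called lower was above the background and the share called higher below it. The median log2 fold change of the 78 genes was −0.81, beside −0.001 for all genes. Without knockdown library 3, 73 of 78 fell and 2 rose, with a median of −1.26, where 39.9% of all genes were called lower and 38.6% higher. The 29 became 18, 19 and 15 without control library 1, 2 or 3 and 21 without knockdown library 1 or 2, each of which leaves fewer libraries to test. In these fits 16.4%, 17.1%, 16.3%, 20.7% and 19.8% of all genes were called lower, so that the genes described here, at 23.1%, 24.4%, 19.2%, 26.9% and 26.9%, were closer to the background than the 37.2% with all libraries. The 15 genes called lower whichever library was left out included Ndufs1, Ndufv1 and Ndufa9 of complex I, Sdhc and Sdhd, Uqcrc1, Uqcrc2 and Uqcrfs1, Cox5a and Cox5b, and Atp5a1, Atp5b, Atp5g2 and Atp5f1. The median standard error of the log2 fold change over the 78 genes was 0.36 with library 3 and 0.06 without it. All 3 knockdown values lay below all 3 control values for 33 genes and above them for 3, against 32.7% and 30.0% of all genes, and the groups overlapped for the other 42. In the authors' deposited table, 29 of the 77 genes with an adjusted p were lower and 0 higher, and 25.2% of all genes there were lower.

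The complexes differed in how much of their RNA was low in library 3. The median log2 difference from the control mean in knockdown libraries 1, 2 and 3 was −1.20, −1.10 and 0.41 for complex I. For complex II it was −1.23, −1.20 and −1.30, the one complex whose 3 medians lay close together. In library 3, however, Sdha was lower and Sdhb higher than in libraries 1 and 2. The core genes of complex III had medians at least as close, −1.55, −1.53 and −1.55. The median coding length was 676.5 bases for complex II and 258 to 444 for the other complexes. Complex III had medians of −1.56, −1.56 and −0.02. Complex IV had −1.82, −1.83 and 0.22, and complex V had −1.51, −1.45 and −0.36. The assembly and associated factors had −0.29, −0.25 and 0.29, the smallest differences in libraries 1 and 2. The order in libraries 1 and 2 was thus complex IV, III, V, II and I for the genes taken by symbol. Genes of one complex are not replicates, so this order carries no test. The place of complex IV rests on the 5 genes that the rule took. Without knockdown library 3, the 10 other nuclear complex IV genes described below had a median log2 fold change of −1.43. Complexes III and V had −1.56 and −1.48 in that fit.

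**Figure D1:**
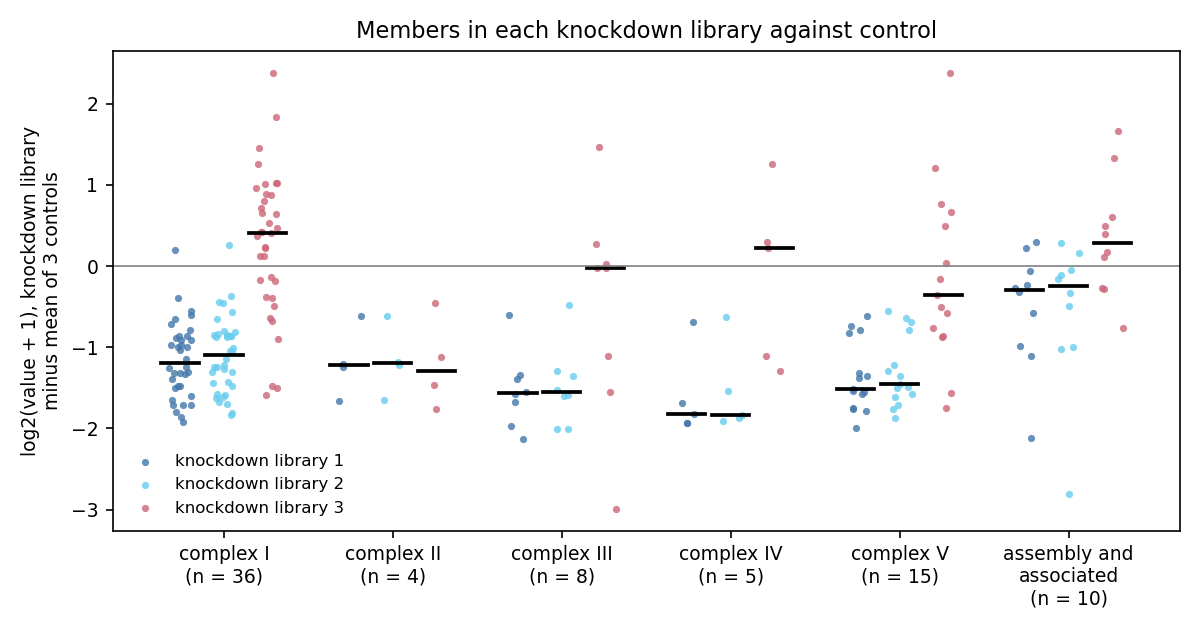
Log2(normalised read count + 1) of each gene in each knockdown library minus the mean of the 3 controls, by complex. Each point is a gene, black bars are medians, and the number of genes is under each complex. Libraries 1 and 2 overlie each other, with medians below 0 in all 5 complexes, from −1.10 to −1.83, whereas library 3 is spread around 0 except in complex II, where its median is −1.30.

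In complex I, 9 of 36 genes fell and 27 did not pass the test, with a median log2 fold change of −0.57. This share of 25.0% was near the 23.5% of all genes called lower. With knockdown library 3 left out, 35 fell, 1 rose and the median was −1.16, where 39.9% of all genes were called lower. The number that fell was 5, 6 and 4 without control library 1, 2 or 3 and 7 without knockdown library 1 or 2. In these fits 16.4%, 17.1%, 16.3%, 20.7% and 19.8% of all genes were called lower, and the share of complex I was below that of all genes in each. The core subunits, which carry the flavin, the iron-sulfur clusters and the quinone site, fell in 5 of 7 cases with a median of −1.30. Ndufs1, the largest iron-sulfur subunit, had normalised read counts of 10149, 10355 and 10199 in the controls and 3682, 3772 and 3601 in the knockdown libraries, a log2 fold change of −1.47 ± 0.10 (SE; limma adjusted p = 0.00013). Ndufv1, which binds NADH and the flavin, was at 12815, 12525 and 13745 against 4673, 4656 and 6971 (−1.29 ± 0.19, limma adjusted p = 0.0026). For both genes every knockdown value was far below every control value, and for Ndufs1 library 3 was at 0.97 of the mean of the other knockdown libraries.

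Ndufs3, a core subunit of the matrix arm, was at 6234, 5899 and 6984 against 2021, 2078 and 4088 (log2 fold change −1.30 ± 0.29, limma adjusted p = 0.013). Ndufs8, an iron-sulfur subunit, was at 6566, 6589 and 7339 against 1968, 2095 and 5188 (−1.30 ± 0.38, limma adjusted p = 0.035). In both genes the groups did not overlap, although library 3 was at 2.0 and 2.55 times the mean of libraries 1 and 2. Ndufs3 did not pass without control library 3 (limma adjusted p = 0.058), and Ndufs8 did not pass when any library but knockdown library 3 was left out (0.092 to 0.11). Ndufs7, another iron-sulfur subunit, was at 4235, 4920 and 4998 against 2492, 2609 and 6091 (−0.47 ± 0.36, limma adjusted p = 0.34). Ndufv2, which holds an iron-sulfur cluster beside the flavin, was at 6956, 7182 and 7607 against 2925, 3261 and 11336 (−0.60 ± 0.52, limma adjusted p = 0.39). Library 3 was above every control for these last genes, so that their groups overlapped.

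The supernumerary subunits of complex I surround the core and have roles in its assembly and stability. Of these 29, 4 fell over all libraries, namely Ndufa9, Ndufa10, Ndufa12 and Ndufb9, with a median log2 fold change of −0.52 for the 29. Their share of 13.8% was below that of all genes. Ndufa9, which lies near the quinone site, was at 6437, 6088 and 6909 in the controls and 1981, 2173 and 2331 in the knockdown libraries (−1.58 ± 0.12, limma adjusted p = 0.00018). Ndufa10 and Ndufa12 had log2 fold changes of −1.45 ± 0.33 and −1.001 ± 0.23 (limma adjusted p = 0.014 and 0.015), and neither passed without control library 1 (0.054 and 0.058) or 3 (0.059 and 0.064). Ndufb9 was at 15018, 14434 and 16528 against 4668, 4797 and 11717 (−1.26 ± 0.37, limma adjusted p = 0.036), and 19.5% of its exonic bases also belong to another annotated gene on the same strand. Ndufb9 did not pass when any library but knockdown library 3 was left out (limma adjusted p = 0.096 to 0.11). In all 29 supernumerary genes library 3 was above both other knockdown libraries, and in 22 it was above the highest control.

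At the upper end of complex I, library 3 was the highest of the 6 libraries. Ndufb7, a subunit on the intermembrane-space side, was at 6016, 6224 and 6691 in the controls and 7220, 7536 and 32943 in the knockdown libraries (log2 fold change 0.95 ± 0.60, limma adjusted p = 0.24). It was the one subunit whose knockdown values all lay above all controls, and without library 3 it rose by 0.23 on the log2 scale (limma adjusted p = 0.0034). Ndufb4, a membrane-arm subunit, was at 1343, 1288 and 1599 against 953, 1036 and 3865 (0.15 ± 0.55, limma adjusted p = 0.84), and without library 3 it fell by 0.50 (limma adjusted p = 0.00059). Ndufa2 was at 4682, 4750 and 5373 against 2670, 2690 and 17538, a 6.54-fold gap between library 3 and the mean of the others. The largest decrease in complex I without library 3 was that of Ndufs4, a matrix-arm subunit, at 4247, 4067 and 4635 against 1136, 1209 and 3777 (−1.32 ± 0.47, limma adjusted p = 0.064; −1.88 without library 3).

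Complex II, succinate dehydrogenase, fell as a whole, with 4 of 4 genes called lower. Of all genes, 23.5% were called lower, and the median log2 fold change of complex II was −1.07. The number called was again 4 of 4 without knockdown library 3, with a median of −1.21, where 39.9% of all genes were called lower. It was 2 of 4 without any one control library, where 16.3% to 17.1% of all genes were called lower. It was 3 of 4 without knockdown library 1 or 2, where 20.7% and 19.8% of all genes were. The membrane anchors, Sdhc and Sdhd, kept their call in each of these fits. Sdhd (GRCm38 chromosome 9, 50596357 to 50603812, minus strand) was at 8363, 8255 and 8919 in the controls and 2691, 2711 and 2503 in the knockdown libraries (−1.69 ± 0.11, limma adjusted p = 9.1e-05). Sdhc (chromosome 1, 171127165 to 171150603, minus strand) was at 9545, 9486 and 9992 against 4183, 4279 and 4438 (−1.17 ± 0.10, limma adjusted p = 0.00033). Library 3 was at 0.93 of the mean of the other knockdown libraries for Sdhd and at 1.05 for Sdhc.

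The catalytic subunits of complex II differed in the direction of library 3. Sdha, the flavoprotein that oxidises succinate (chromosome 13, 74322254 to 74350280, minus strand), was at 12671, 12708 and 13106 against 8376, 8355 and 4646 (−0.90 ± 0.25, limma adjusted p = 0.03). Sdhb, the iron-sulfur subunit (chromosome 4, 140961203 to 140979193, plus strand), was at 6504, 6037 and 7174 against 2772, 2823 and 4798 (−0.97 ± 0.24, limma adjusted p = 0.019). Library 3 was thus lowest for Sdha, at 0.56 of the mean of the other knockdown libraries, and highest for Sdhb, at 1.71 of that mean. In neither gene did the groups overlap. Without any one control library Sdha did not pass (limma adjusted p = 0.092 to 0.098), nor did Sdhb when any library but knockdown library 3 was left out (0.054 to 0.077). None of the 4 genes was above the highest control in library 3.

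In complex III, 3 of 8 genes fell, 5 did not pass the test and the median log2 fold change was −1.17. The share that fell was 37.5%, against 23.5% of all genes. The 3 that fell were the 3 core genes among these 8, which are not every nuclear gene of the complex. Without knockdown library 3 all 8 fell with a median of −1.56, where 39.9% of all genes were called lower. Uqcrfs1, the Rieske iron-sulfur protein that passes electrons towards cytochrome c, was at 7597, 7845 and 8226 in the controls and 1806, 1956 and 2700 in the knockdown libraries (−1.89 ± 0.18, limma adjusted p = 0.00039). Uqcrc1, a core protein of the matrix side, was at 11531, 11371 and 12214 against 4610, 4772 and 5443 (−1.25 ± 0.12, limma adjusted p = 0.00046). Uqcrc2, the other core protein, was at 7362, 7654 and 7600 against 2574, 2611 and 947 (−2.02 ± 0.41, limma adjusted p = 0.0085). Uqcrc2 had the largest decrease of the 78 genes over all libraries, and its library 3 value was 0.37 of the mean of libraries 1 and 2.

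The small subunits of complex III, which surround the core, were low in knockdown libraries 1 and 2 and close to or above the controls in library 3. Uqcrq, which binds near the quinone site, was at 12037, 11514 and 13253 in the controls and 3112, 3055 and 12059 in the knockdown libraries (−1.33 ± 0.55, limma adjusted p = 0.094). Its log2 fold change without library 3 was −1.99, the second largest decrease in the complex after Uqcrfs1. Uqcrh, the hinge protein at the cytochrome c side, was at 9304, 8763 and 9981 against 6167, 6673 and 25903 (0.13 ± 0.56, limma adjusted p = 0.87), and without library 3 it fell by 0.54. Uqcrb, Uqcr10 and Uqcr11 had adjusted p of 0.097, 0.11 and 0.2 in limma, with log2 fold changes from −1.10 to −0.82.

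In complex IV, Cox5a and Cox5b fell and 3 of 5 genes did not pass the test, with a median log2 fold change of −1.20. The share that fell was 40.0%, against 23.5% of all genes. All 5 fell without knockdown library 3, where 39.9% of all genes were called lower. The median of −1.83 in that fit was the lowest of the 5 complexes, taken over these 5 genes only. The 10 other nuclear complex IV genes described below had a median of −1.43 there. Cox5a, a subunit on the matrix side, was at 7038, 6919 and 7281 in the controls and 1853, 1886 and 3293 in the knockdown libraries (−1.65 ± 0.24, limma adjusted p = 0.0025). Cox5b, which binds zinc, was at 16993, 16782 and 18341 against 4903, 4874 and 7080 (−1.65 ± 0.18, limma adjusted p = 0.00078). The groups of both genes were well apart.

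Of the other complex IV genes, Ndufa4, once assigned to complex I, was at 12075, 11422 and 13477 against 3207, 3347 and 14364 (−1.20 ± 0.59, limma adjusted p = 0.15). Cox6b1, a subunit at the dimer interface, was at 12596, 12077 and 13665 against 3967, 4386 and 15616 (−0.98 ± 0.53, limma adjusted p = 0.18). Cox6c was at 15128, 14769 and 17267 against 9704, 10175 and 37629 (−0.02 ± 0.54, limma adjusted p = 0.98). In all 3 genes library 3 was the highest of the 6 libraries while libraries 1 and 2 were the lowest.

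**Figure D2:**
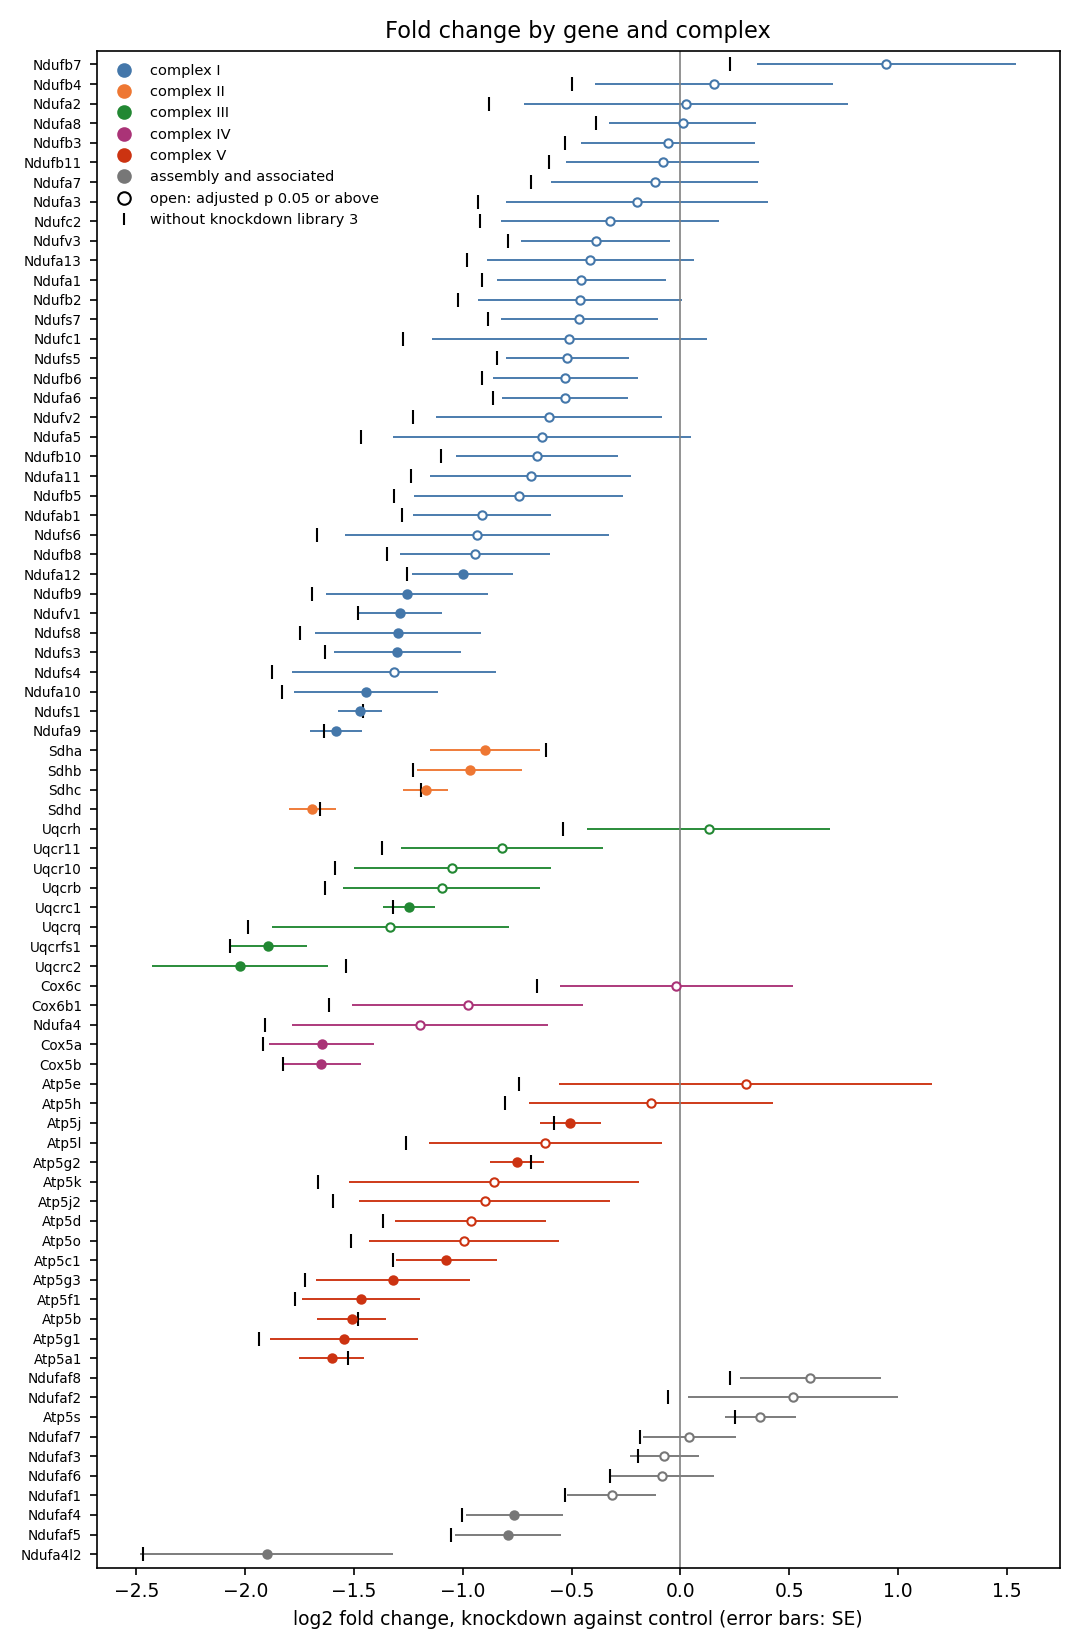
Log2 fold change of knockdown against control for the genes of each complex, with its SE (limma, 3 libraries a group). Filled points have an adjusted p under 0.05, open points do not, and vertical ticks mark the value without knockdown library 3. The filled points all lie left of 0, and for most open points the tick lies well to the left of the point.

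In complex V, 8 of 15 genes fell and 7 did not pass the test, with a median log2 fold change of −0.96. The share that fell was 53.3%, against 23.5% of all genes. All 15 fell without knockdown library 3, with a median of −1.48, where 39.9% of all genes were called lower. Without control library 3, 4 fell, where 16.3% of all genes were called lower. The catalytic head is built from alternating alpha and beta subunits around a central gamma subunit. Atp5b, the catalytic beta subunit (chromosome 10, 128083273 to 128090391, plus strand), was at 94650, 91369 and 99133 in the controls and 33340, 34793 and 32005 in the knockdown libraries (−1.51 ± 0.16, limma adjusted p = 0.00063). Atp5a1, the alpha subunit, was at 59343, 59165 and 61185 against 20445, 21079 and 17763 (−1.60 ± 0.15, limma adjusted p = 0.00039). Atp5c1, the gamma subunit, was at 14775, 13570 and 15721 against 5734, 5998 and 9798 (−1.08 ± 0.23, limma adjusted p = 0.012; 0.053 without control library 3). The alpha and beta genes were the 2 with the highest level per kilobase of exon among the 78 in the controls, 19106 and 22434, and both were low to a similar degree in all 3 knockdown libraries.

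The small subunits of the head were different in library 3. Atp5e, the epsilon subunit, was at 5788, 5758 and 6881 in the controls and 3539, 3788 and 31918 in the knockdown libraries (0.30 ± 0.86, limma adjusted p = 0.8). Its library 3 value was 8.71-fold above the mean of libraries 1 and 2, the widest gap of all 78 genes, and its coding sequence of 156 bases is the shortest. Atp5d, the delta subunit, was at 19201, 19468 and 20363 against 7539, 7707 and 17635 (−0.96 ± 0.35, limma adjusted p = 0.066). Of the 7 genes for the stalk and the membrane part, Atp5f1 (−1.47 ± 0.27, limma adjusted p = 0.0062) and Atp5j (−0.51 ± 0.14, limma adjusted p = 0.028) fell. Atp5j did not pass when any library but knockdown library 3 was left out (limma adjusted p = 0.06 to 0.11). It shares 397 exonic bases with Gabpa on the opposite strand, and the counting is not stated to use strand.

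The c subunits form the rotating ring, and 3 genes on different chromosomes encode the same ring protein behind different leader peptides. The last 75 codons of each gene are shown because they encode the ring protein itself, and reads from this stretch can be assigned to a copy only by the bases that differ. Capitals mark the bases that are not the same in all 3 genes (GENCODE M21 transcripts on GRCm38; Atp5g1 at chr11:96068852-96075670, Atp5g2 at chr15:102662864-102672352 and Atp5g3 at chr2:73908447-73911326, all on the minus strand).
Atp5g1: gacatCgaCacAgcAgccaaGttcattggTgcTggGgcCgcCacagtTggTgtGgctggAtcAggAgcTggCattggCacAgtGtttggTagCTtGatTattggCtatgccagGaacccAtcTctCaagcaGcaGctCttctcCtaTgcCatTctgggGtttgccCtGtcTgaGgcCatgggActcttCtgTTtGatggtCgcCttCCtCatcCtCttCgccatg
Atp5g2: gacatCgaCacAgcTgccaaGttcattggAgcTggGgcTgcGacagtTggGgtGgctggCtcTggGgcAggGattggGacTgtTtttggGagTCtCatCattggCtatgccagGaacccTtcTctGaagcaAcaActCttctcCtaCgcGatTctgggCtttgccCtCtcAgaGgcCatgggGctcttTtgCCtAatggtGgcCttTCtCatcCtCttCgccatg
Atp5g3: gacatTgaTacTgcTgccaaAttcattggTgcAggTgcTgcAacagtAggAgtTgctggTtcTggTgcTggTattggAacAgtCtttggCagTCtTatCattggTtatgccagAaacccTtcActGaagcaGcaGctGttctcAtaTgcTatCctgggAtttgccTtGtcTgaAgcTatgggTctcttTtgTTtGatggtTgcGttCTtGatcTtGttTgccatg
These 225 bases encode the same 75 residues in all 3 genes. They differ at 57 positions, 52 of them at the last base of a codon. The longest run of identical bases in the coding sequences was 20 between Atp5g1 and Atp5g2, 11 between Atp5g1 and Atp5g3 and 8 between Atp5g2 and Atp5g3, far below the read length of 150 bases. Pairs of the printed stretches were identical at 84.9%, 80.0% and 78.7% of bases in the same order.

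All 3 c-subunit genes fell, by different amounts. Atp5g1 was at 11720, 11512 and 13571 in the controls and 3058, 3337 and 7185 in the knockdown libraries (−1.55 ± 0.34, limma adjusted p = 0.012; 0.053 without control library 3). Atp5g3 was at 27150, 26484 and 28819 against 8175, 8414 and 19330 (−1.32 ± 0.35, limma adjusted p = 0.025), and did not pass when any library but knockdown library 3 was left out (0.071 to 0.086). Atp5g2 was at 13480, 12682 and 13955 against 8024, 8569 and 7267 (−0.75 ± 0.12, limma adjusted p = 0.004). The mix of copies also differed, which was not tested. Atp5g2 made up 25.8%, 25.0% and 24.8% of the summed c-subunit value in the controls, 41.7% and 42.2% in knockdown libraries 1 and 2, and 21.5% in library 3. Atp5g1 made up 22.4%, 22.7% and 24.1% in the controls and 15.9%, 16.4% and 21.3% in the knockdown libraries. In this mix library 3 was nearer to the controls than to libraries 1 and 2.

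**Figure D3:**
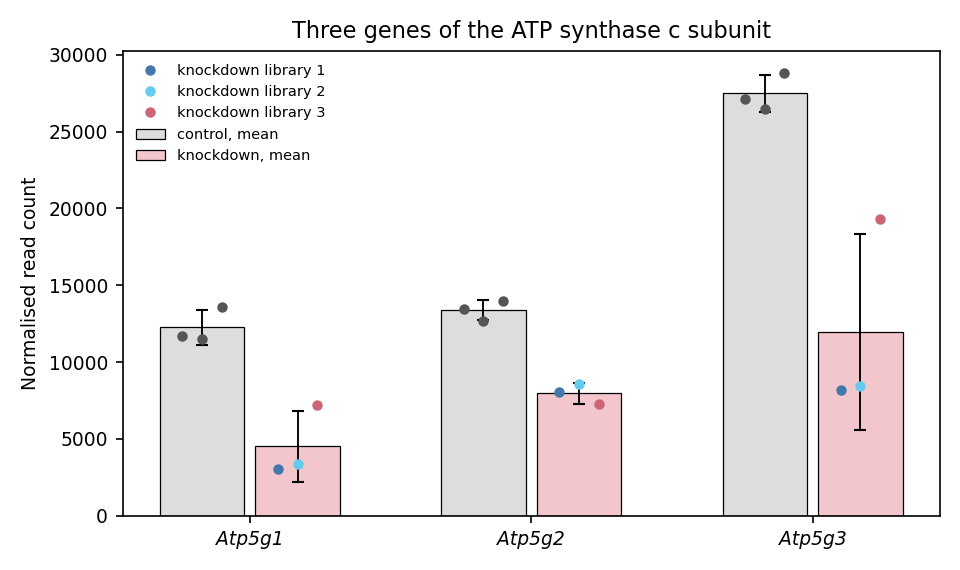
Normalised read counts of the 3 genes for the c subunit of ATP synthase. Bars are the means of 3 libraries, error bars the SD and points the single libraries. Atp5g2 is at 7267 to 8569 in all 3 knockdown libraries, whereas library 3 stands above libraries 1 and 2 for Atp5g1 (7185) and Atp5g3 (19330).

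Of the 10 assembly and associated factors, 3 fell, 0 rose and 7 did not pass the test, with a median log2 fold change of −0.08. The share that fell, 30.0%, was near the 23.5% of all genes called lower. Leaving out knockdown library 3 gave 6 that fell and 1 that rose, where 39.9% of all genes were called lower and 38.6% higher. Leaving out any other library gave 0 of either. Ndufaf4 (−0.76 ± 0.22, limma adjusted p = 0.034) and Ndufaf5 (−0.79 ± 0.24, limma adjusted p = 0.041) fell. Ndufaf8 was at 586, 691 and 630 in the controls and 779, 707 and 1601 in the knockdown libraries (0.60 ± 0.32, limma adjusted p = 0.19). Ndufaf2 was at 640, 519 and 603 against 559, 568 and 1852 (0.52 ± 0.48, limma adjusted p = 0.42). Atp5s, also called factor B, was at 244, 218 and 245 against 274, 287 and 358 (0.37 ± 0.17, limma adjusted p = 0.12). Ndufaf8 and Atp5s were, with Ndufb7, the genes whose knockdown values all lay above all controls.

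Ndufa4l2, a paralog of Ndufa4, was expressed at a level near the filter and passed it through the controls and library 3. It was at 19.6, 18.9 and 15.2 in the controls and 3.32, 1.67 and 10.1 in the knockdown libraries (−1.90 ± 0.58, limma adjusted p = 0.039). One read was worth 0.829 and 0.836 in knockdown libraries 1 and 2, so these values rest on a few reads and the fitted change depends on the pseudocount. Per kilobase of exon, the median control level was 3466 for complex I, 3043 for complex II, 6795 for complex III, 8924 for complex IV, 6316 for complex V and 272.9 for the assembly and associated factors.

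Library 3 departed from libraries 1 and 2 most for genes with a short coding sequence. Among the 78 genes, the log2 difference between library 3 and the mean of libraries 1 and 2 had a Spearman correlation of −0.68 with coding length (n = 78 genes of the same libraries). The difference of library 1 or library 2 from the control mean had a correlation of −0.03 and −0.04. Coding length was that of the principal transcript in GENCODE M21. The 16 genes under 300 coding bases had a median log2 difference of 1.99, and the 22 genes from 300 to under 450 bases one of 1.52. The median was 1.21 for 15 genes from 450 to under 600 bases, 0.85 for 12 from 600 to under 1000 and 0.58 for 9 from 1000 to under 1500. The 4 genes from 1500 to under 3000 bases had a median of −0.16.

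Other protein-coding genes showed the same order with smaller values. Their correlation was −0.35 (n = 13122 genes), and −0.45 among the 6879 with a control mean of at least 1000. Their medians in the same length classes were 1.10, 0.74, 0.45, 0.16, −0.13 and −0.42. One control library also had such an order: the log2 difference of control library 3 from controls 1 and 2 had a correlation of −0.40 with coding length among the 78 genes, over a range of only −0.32 to 0.28. This control difference had a correlation of −0.39 among the 13122 other genes and of −0.61 among the 6879. The number of genes called lower followed length. It was 2 of the 26 shortest (7.69%), 10 of the 26 in the middle (38.5%) and 17 of the 26 longest (65.4%). Of all genes, 23.5% were called lower. The numbers were 25, 23 and 25 without knockdown library 3, where 39.9% of all genes were called lower. With the trend on coding length removed from every library, an alternative added after the data had been seen, 45 of the 78 fell and 2 rose, where 25.6% of all genes were called lower. What made library 3 differ was not tested.

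**Figure D4:**
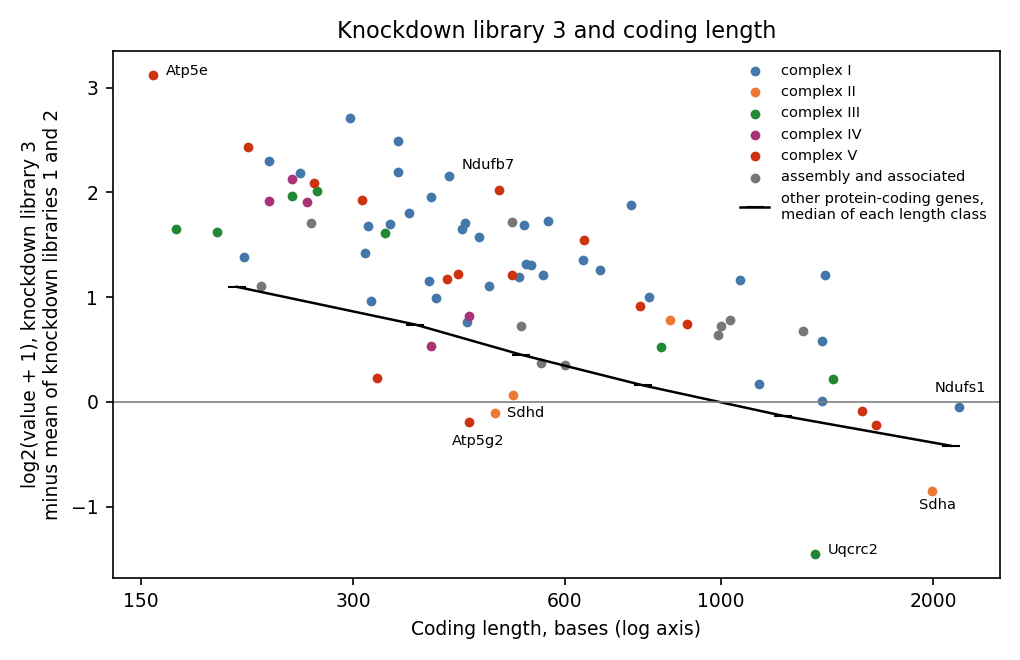
Log2(normalised read count + 1) in knockdown library 3 minus the mean of knockdown libraries 1 and 2, against coding length in bases (log axis), for the 78 genes. Points are coloured by complex, and the black line joins the medians of other protein-coding genes by length class, from 1.10 under 300 bases to −0.42 from 1500 to under 3000. Atp5e, at 156 bases, is highest, while Uqcrc2 and Sdha are lowest.

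Other genes of the pathway were read against the same 23.5% of all genes called lower and 21.7% called higher. Without knockdown library 3 these shares of all genes were 39.9% and 38.6%. In the tricarboxylic acid cycle, 12 of 14 genes fell (85.7%) and 0 rose. Idh3a, a subunit of mitochondrial isocitrate dehydrogenase, was at 8147, 8041 and 8401 in the controls and 1381, 1453 and 1123 in the knockdown libraries (−2.64 ± 0.13, limma adjusted p = 4.6e-05). Among 13 electron carriers and their enzymes, 7 fell (53.8%) and 1 rose, and 11 fell and 1 rose without knockdown library 3. Cycs, somatic cytochrome c, was at 6920, 6308 and 7471 against 1098, 1191 and 1502 (−2.46 ± 0.16, limma adjusted p = 9.8e-05). Etfa, a subunit of the electron transfer flavoprotein, rose from 4955, 4846 and 5409 to 6630, 6806 and 6826 (0.41 ± 0.11, limma adjusted p = 0.022).

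Of 10 other nuclear complex IV genes, 5 fell and 0 rose, and without knockdown library 3 all 10 fell. The muscle isoform Cox6a2 was at 6965, 6621 and 7320 in the controls and 13.3, 15.9 and 40.2 in the knockdown libraries (−8.34 ± 0.41, limma adjusted p = 4e-05). Of 31 other assembly factors, 16 fell (51.6%) and 2 rose, and without knockdown library 3 the numbers were 23 and 4. Uqcc1, an assembly factor of complex III, had −2.11 ± 0.12 (limma adjusted p = 7e-05), and Surf1, an assembly factor of complex IV, rose by 0.93 ± 0.15 on the log2 scale (limma adjusted p = 0.0037). Of 12 mitochondrially encoded genes 3 fell and 0 rose, a share of 25.0% that was near the background, and without library 3 the number that fell was 11. Of the 3, mt-Nd4l was low, at 14.2, 17.7 and 17.1 against 5.80, 6.69 and 1.12, and passed the filter only through the controls. The control means of mt-Co2, mt-Co3, mt-Atp6 and mt-Atp8 were also low, 19.4 to 76.3. Knockdown library 3 was at 41159 for mt-Co1, where libraries 1 and 2 were at 339027 and 336305. For mt-Nd6 it was at 158655, where they were at 21887 and 22887. mt-Nd2, a membrane subunit of complex I, was at 124897, 106861 and 124524 against 50908, 51168 and 50889 (−1.22 ± 0.18, limma adjusted p = 0.0024).

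Transcription of these genes is known to be driven by the factors NRF1 and GABP, by the ERR receptors and by the coactivator PGC-1alpha. A list of 12 regulators held genes for such factors, and also Tfam, Tfb1m, Tfb2m and Polrmt, which serve the transcription of mitochondrial DNA. Of the 12, 7 fell (58.3%) and 0 rose, and without knockdown library 3, 10 fell and 1 rose. Tfb1m and Tfb2m were among the 7 that fell, so this share is not that of the factors named above alone. Ppargc1a, which encodes PGC-1alpha, was at 361, 413 and 383 in the controls and 87.9, 72.8 and 114 in the knockdown libraries (−2.08 ± 0.21, limma adjusted p = 0.00055). Esrra, which encodes ERR-alpha, was at 4609, 4596 and 5050 against 1695, 1668 and 901 (−1.80 ± 0.26, limma adjusted p = 0.0025). Nrf1 had a log2 fold change of −0.07 (limma adjusted p = 0.67) and did not pass the test. Gabpa, which encodes a subunit of GABP, was at 2012, 2175 and 1958 against 3934, 3954 and 2268 (0.68 ± 0.24, limma adjusted p = 0.061). All its knockdown values lay above all controls, and it rose by 0.95 without library 3 (limma adjusted p = 1.1e-07). Gabpb1, which encodes another subunit of GABP, fell (−0.59 ± 0.15, limma adjusted p = 0.023), and also fell without library 3, by 0.46.

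Promoter sequences were available for 64 of the 78 genes, as 69 promoters from RefSeq on GRCm38.p6, and were searched over the 250 bases before the start on both strands. The NRF1 motif GCATGCGC was in 11.6% of these promoters and in 2.3% of all promoters. The GABP or ETS motif CCGGAAG was in 18.8% and 6.9%. The YY1 motif AAGATGGC was in 1.4% and 1.6%, and the ERR motif TCAAGGTCA in 1.4% and 0.4%. One gene of each of complexes I, II, III and V is shown as an example of such a match, clipped to bases outside annotated exons. Capitals mark the motif on either strand, and all 4 run 5′ to 3′ on the gene's own minus strand.
Ndufa6, chr15:82354323-82354420: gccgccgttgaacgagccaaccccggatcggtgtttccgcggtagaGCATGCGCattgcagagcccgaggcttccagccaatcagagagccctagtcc
Sdhd, chr9:50603850-50603909: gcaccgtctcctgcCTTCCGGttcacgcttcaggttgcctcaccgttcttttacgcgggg
Uqcr11, chr10:80406835-80406934: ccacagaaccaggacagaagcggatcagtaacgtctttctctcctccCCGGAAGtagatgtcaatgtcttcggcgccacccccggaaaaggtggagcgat
Atp5l, chr9:44920916-44920992: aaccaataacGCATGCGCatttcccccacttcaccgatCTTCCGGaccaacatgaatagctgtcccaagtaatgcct
Ndufa6 has the NRF1 letters 83 bases before its start. Sdhd has the ETS letters 46 bases and Uqcr11 66 bases before the start, and Atp5l has both motifs, 240 and 212 bases before it. Over all 6 libraries Sdhd fell, while Ndufa6, Uqcr11 and Atp5l did not pass the test (limma adjusted p = 0.19, 0.2 and 0.39). All 4 fell without knockdown library 3, by 0.86 (Ndufa6), 1.66 (Sdhd), 1.37 (Uqcr11) and 1.26 (Atp5l) on the log2 scale. Ndufb7 and Ndufaf8, whose promoters also hold the ETS letters, rose without that library, by 0.23 each. These matches are descriptions of the letters and are not measured binding.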

How the data were processed

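RNA was sequenced from 3 control and 3 knockdown C2C12 libraries. Per the submitters' processing notes the tools were Trimmomatic 0.36, featureCounts of Subread 1.5.2 and DESeq2, with the mouse build GRCm38; no aligner, annotation release or strand setting is named in the sources used here. The deposited values are gene counts divided by a size factor, a signal on one scale across libraries. Dividing each value by the value of 1 read (0.829 to 1.26) gave whole reads for 100.0% of values within 0.01 read, with 37346439 to 50329438 reads a library. The authors' deposited table also holds log2 fold changes and p-values from their comparison, from which counts of calls are given.

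The 16245 genes that reached 10 in 3 or more libraries were tested on log2(value + 1) with limma 3.58.1 (R 4.3.3, mean-variance trend, no block, two-sided, Benjamini-Hochberg over all genes tested, threshold 0.05). A fold change is on the log2(value + 1) scale and is understated for low genes. Simulated reads for 15280 genes took their means and spread from the 3 control libraries, so no simulated library departed as knockdown library 3 did. In them 92% of 2-fold changes and 100% of 4-fold changes were recovered, with 11 false calls. These shares do not carry over to fits that include knockdown library 3. Alternatives were other filters (none, 50), pseudocounts (0.5, 5), TMM and upper-quartile scaling, no trend, edgeR 4.0.16 and DESeq2 1.42.0 on whole reads, a replicate block, leaving out each library, an adjusted p under 0.01, a 2-fold minimum, and Ndufa4 and the assembly factors placed as their symbols read. No p was computed for a complex.

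The genes and lists were chosen with earlier results of these data known. Values in all libraries are given for the core subunits, complex II, paralog sets and the genes at the ends of each complex. They are also given for the clearest gene of each other list by adjusted p, except Uqcc1 and Surf1, which have fold changes only. Ndufa2, Ndufb9 and the regulators named beside Ppargc1a are given outside this choice. Ndufs4, Uqcrq, Atp5d, Ndufaf4, Atp5s, Pecam1 and the genes of the promoter examples were named after their values were seen. So were the other endothelial, leukocyte, epithelial and fibroblast markers named, and the mitochondrially encoded genes named beside mt-Nd2. Exons of 27 of the 78 genes overlap a gene on the opposite strand. One gene is included in counts and medians but is not reported here by name or shown in the plot of fold changes.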

Additional observations from a re-analysis of the deposited data

How the results depend on the processing

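Among the 78 genes, no filter, a minimum of 50, both pseudocounts, TMM and placing genes as their symbols read kept every count within 1.5 times. The number that fell was 15 to 73 when single libraries were left out, 15 at an adjusted p under 0.01 and 45 with the length trend removed, and the number that rose was 0 to 2 and 2 in the first and last. By complex, with single libraries left out, the number that fell was 4 to 35 (I), 2 to 4 (II), 3 to 8 (III), 2 to 5 (IV), 4 to 15 (V) and 0 to 6 (assembly and associated factors), of which 35, 4, 8, 5, 15 and 6 without knockdown library 3; 0 to 1 rose in complex I and in the assembly and associated factors. The complex II median was −1.21 to −1.03 in these fits, −0.95 with upper-quartile scaling and −1.01 with edgeR. With the length trend removed 16 (I), 7 (III) and 4 (IV) fell and 2 assembly and associated factors rose. At an adjusted p under 0.01, 4 (I), 2 (II), 4 (V) and 0 assembly and associated factors fell, and with a 2-fold minimum 2 (II) and 1 of the assembly and associated factors, Ndufa4l2. Upper-quartile scaling and edgeR left 0 assembly and associated factors lower; these scalings moved the median of all genes by 0.12 and 0.11. Why these counts moved was not tested.

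The replicate numbers did not pair the samples (same-number correlations 0.02, 0.11 and 0.14), and with a replicate block Atp5j (limma adjusted p = 0.051) and Ndufa4l2 (0.076) no longer passed.

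Genes that changed sign were all without a call over the 6 libraries. Their log2 fold changes were, with upper-quartile scaling, 0.10 (Cox6c), 0.061 (Ndufb3), 0.034 (Ndufb11), 0.033 (Ndufaf6) and 0.043 (Ndufaf3). With edgeR they were 0.33 (Cox6c), 0.15 (Ndufb3), 0.16 (Ndufb11), 0.25 (Atp5h), 0.24 (Ndufa3) and 0.16 (Ndufa7), and with DESeq2 0.31, 0.14, 0.14, 0.23, 0.23 and 0.15. With the length trend removed they were −0.09 (Ndufa2) and −0.006 (Uqcrh). With single libraries left out, the log2 fold changes ranged from −0.878 to 0.48 (Ndufa2), −0.658 to 0.319 (Cox6c), −0.741 to 0.845 (Atp5e), −0.498 to 0.511 (Ndufb4), −0.185 to 0.193 (Ndufaf7), −0.53 to 0.217 (Ndufb3) and −0.386 to 0.215 (Ndufa8). They ranged from −0.923 to 0.004 (Ndufc2), −0.606 to 0.201 (Ndufb11), −0.807 to 0.214 (Atp5h), −0.928 to 0.199 (Ndufa3), −0.686 to 0.182 (Ndufa7), −0.325 to 0.042 (Ndufaf6), −0.541 to 0.494 (Uqcrh), −0.055 to 0.809 (Ndufaf2) and −0.197 to 0.007 (Ndufaf3). Each lowest value was the one without knockdown library 3.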
